A study of Mus musculus with 8 samples.

Results

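The genes described here encode the semaphorins, plexins and neuropilins, a ligand and receptor family that guides growing axons. Members were the rows of the deposited gene table whose symbol named a semaphorin of classes 3 to 7, a plexin of types A to D, or neuropilin 1 or 2. The rule found 31 genes among 25815, namely 20 semaphorins, 9 plexins and 2 neuropilins, and no measured value entered it. All 31 passed the filter on low counts.

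Semaphorins carry a conserved sema domain and act on the cytoskeleton of the cells that receive them. Class 3 semaphorins are secreted, and most of them bind neuropilins, which lack a signalling domain of their own and join A-type plexins or plexin D1 in one receptor complex. Classes 4, 5 and 6 span the membrane, and the single class 7 member is held by a lipid anchor. Plexins signal through a cytoplasmic domain that acts on small GTPases. In the adult brain the family is known for roles in synapse density, myelinating cells and vessels.

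Brain RNA came from 5 mice of the Cstf2 mutant line, called D50A here, and from 3 wild-type littermates, called WT, all 50 days old. D50A carries alanine for aspartate in CSTF2, an RNA-binding subunit of the cleavage stimulation factor that helps form mRNA 3' ends. Both groups share the C57BL/6NCrl background, kept as a colony after 4 generations of backcrossing, and neither was treated. Poly(A) RNA was sequenced, and the comparison asks whether the mutation alters transcript levels. The labels name no sex, litter or batch, and the mutation is present in the whole animal rather than in 1 cell type.

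Libraries of the D50A group did not form 1 uniform set. Totals ran from 13675945 to 24802272 counts in D50A and from 16455364 to 20551906 counts in WT. Mitochondrial transcripts took 11.9% of D50A 3, the library titled D0169Mut, where each of the other 7 libraries had 4.08% to 5.14%. The mutation changes a codon and leaves the transcript in place, so the level of Cstf2 does not check the labels. In CPM, the count per gene scaled to library size with TMM factors, it averaged 108 ± 25.3 in D50A (SD, n = 5) and 127 ± 6.66 in WT (SD, n = 3). D50A 3 had 65.8 CPM of Cstf2, and without that library the D50A mean was 119 ± 10.1 CPM (SD, n = 4). All tissue was labelled total brain, yet cerebellar granule cell markers were high in D50A 2 to 5 and low elsewhere. The 11 markers summed to 704 to 1029 CPM in libraries D50A 2 to 5, whereas D50A 1 had 135 CPM and the WT libraries had 122 to 127 CPM. Gabra6, a defining granule cell gene, had 0 counts in D50A 1 and in WT 1. Counts over the members and fold changes of the genes described singly are therefore given for all 8 libraries, without D50A 3, and without both D50A 1 and D50A 3. Levels per kb and mean levels of the members leave out D50A 3, whose values are in the plot of ratios by library. In bulk RNA, fewer cells of a type and less RNA per cell cannot be told apart.

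Per kilobase of exon, the family spanned more than an order of magnitude in WT brain. Sema7a, the lipid-anchored semaphorin, was highest at 51.8 ± 4.95 CPM per kb in D50A without D50A 3 (SD, n = 4) and 51.1 ± 3.89 CPM per kb in WT (SD, n = 3). Sema6b, a transmembrane ligand, came next at 35.0 ± 4.43 CPM per kb in D50A without D50A 3 and 37.9 ± 1.67 CPM per kb in WT. Among receptors Plxnd1, a plexin well known from vessels and from synapse targeting, and Plxnb1, a receptor for Sema4d, were highest. Plxnd1 was at 12.1 ± 3.32 CPM per kb in D50A without D50A 3 and 14.0 ± 1.64 CPM per kb in WT, and Plxnb1 at 12.4 ± 1.96 and 13.6 ± 0.698 CPM per kb, so their order changed between the groups and lay within their spread. Both neuropilins were lower, with Nrp1 at 3.83 ± 0.200 and 4.77 ± 0.372 CPM per kb and Nrp2 at 3.61 ± 0.621 and 4.48 ± 0.351 CPM per kb. No secreted class 3 gene was above the neuropilins in WT. Sema3c was at 3.63 ± 0.497 CPM per kb in D50A without D50A 3 and 4.08 ± 0.287 CPM per kb in WT. Sema3b, at 0.929 ± 0.147 and 0.898 ± 0.159 CPM per kb, was near the bottom with Sema6c at 0.933 ± 0.141 and 0.859 ± 0.140 CPM per kb. Lengths are the union of annotated exons, so a gene with unused exons reads low on this scale.

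**Figure D1:**
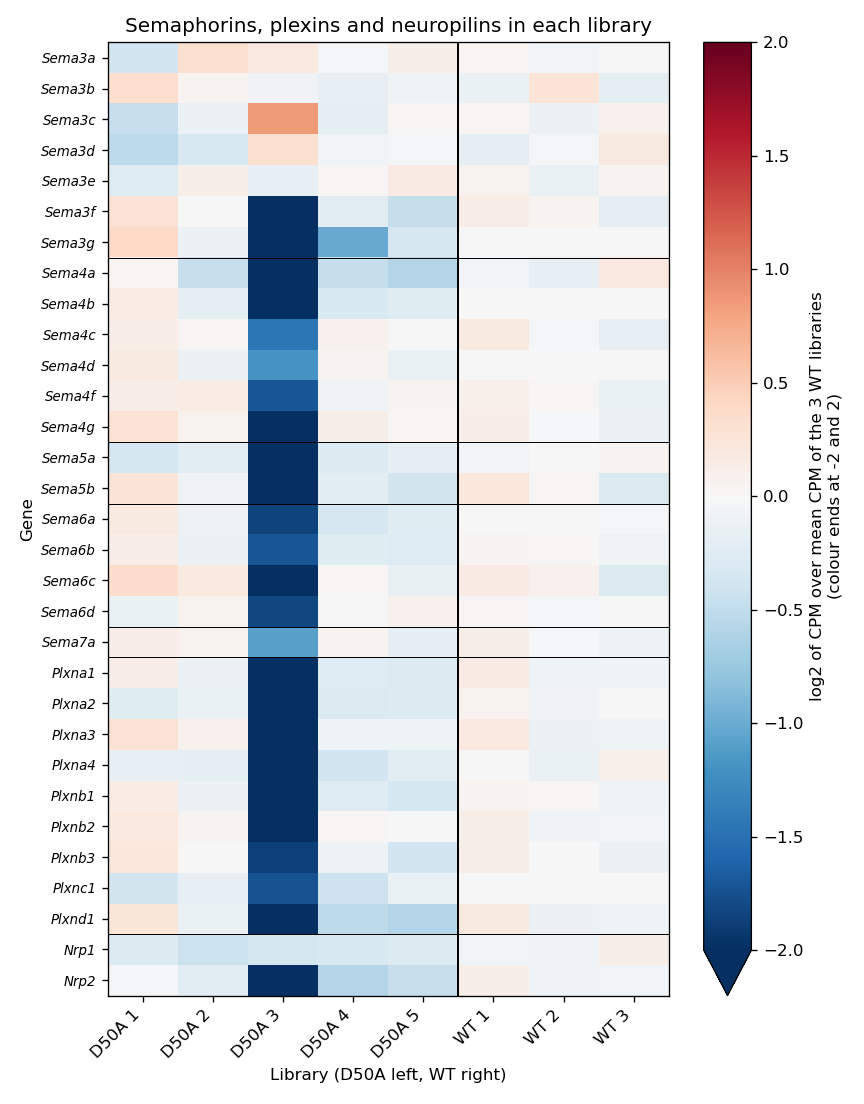
Each row is 1 gene and each column 1 library, with D50A left of WT; colour is the log2 of the CPM over the mean CPM of the 3 WT libraries, and colours end at -2 and 2. D50A 3 is the lowest of the 8 libraries for 25 of the 31 genes, and Nrp1, Sema5a, Plxna2, Plxna4 and Plxnc1 are below WT in each D50A library. The share of all genes with D50A 3 lowest is not given here.

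No semaphorin, plexin or neuropilin gene differed between 5 D50A and 3 WT libraries past the threshold. edgeR's quasi-likelihood test with Benjamini-Hochberg adjustment over 16810 genes called 0 members higher and 0 lower, where it called 0% of all genes in either direction. At an unadjusted p under 0.05 there was 1 member lower, Nrp1, against 0.863% of all genes, and 0 higher, against 1.64%. DESeq2 called 0 members, and called 0.206% of genes with an adjusted p higher and 0.0364% lower. limma-voom, with quality weights per library, called Nrp1, Nrp2 and Sema4a lower, against 1.2% of all genes. The log2 fold change was below 0 for 28 members, or 90.3%, against 51.4% of all genes, and the median was -0.32 for members and -0.01 for all genes tested. The 3 members above 0 were Sema3a at 0.07 (SE 0.17), Sema3b at 0.03 (SE 0.19) and Sema3c at 0.10 (SE 0.29), each less than its SE. Of the 7 secreted class 3 genes, 4 were below 0.

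The median depended on D50A 3. This library was the lowest of the 8 for 25 members and held under 25% of the WT mean for 16 of them. The shares of all genes for these 2 counts are not given here, so the counts cannot be read as particular to the members. The median log2 difference of D50A 3 from the WT mean was -2.01 for members and -0.09 across 12438 genes. Plxna1, a receptor for class 3 and class 6 semaphorins, had 5.37 CPM in D50A 3, 86.8 to 117 CPM in the other 4 D50A libraries, and 100.3 to 119 CPM in WT. Sema3c went the other way, with 52.7 CPM in D50A 3, 21.2 to 29.8 CPM in the other D50A libraries, and 26.8 to 30.8 CPM in WT. Members together held 0.0448% of the counts in D50A 3, 0.174% to 0.203% in D50A 1, 2, 4 and 5, and 0.191% to 0.204% in WT. Without D50A 3 the members' median log2 fold change was -0.10. Then 19 members, or 61.3%, were below 0, against 50.6% of all 16754 genes tested, and 12 were above 0, against 49.4%.

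Without D50A 3, edgeR again called 0 members in either direction, as it called 0% of all genes. At an unadjusted p under 0.05, 7 members were lower, or 22.6%, against 4.33% of all genes, and 0 were higher, against 5.07%. These were Nrp1, Nrp2, Plxna2, Plxna4, Plxnc1, Sema4a and Sema5a, with edgeR adjusted p-values from 0.23 to 0.48. DESeq2 called 0 members in these libraries, where 0.716% of genes with an adjusted p were higher and 0.245% lower. limma-voom called Nrp1, Nrp2 and Sema4a lower here too, against 1.19% of all genes. Every D50A library lay below every WT library for 5 members, or 16.1%, with all 8 libraries, against 4.24% of all genes. The same 5, Nrp1, Plxna2, Plxna4, Plxnc1 and Sema5a, were separated without D50A 3, against 5.26% of all genes. No member had every D50A library above every WT library, where 3.22% of all genes did with 8 libraries and 5.28% without D50A 3.

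With D50A 1 left out as well, so that D50A 2, 4 and 5 were set against WT, 7 members fell. They were Sema4a, Nrp2, Nrp1, Plxnd1, Sema5a, Plxna4 and Plxna2, or 22.6% of members, against 3.06% of 16591 genes. No member rose, against 3.36% of all genes. The log2 fold change was below 0 for 23 members, or 74.2%, against 48.9% of all genes. With the scaling of this fit, 1 member had all 3 D50A libraries above WT, against 13.0% of all genes. DESeq2 also called 7 lower in these libraries, with Plxnb1 in place of Plxnd1, against 3.69% of genes with an adjusted p. With each library corrected for transcript GC content and length, edgeR called 4 lower, namely Nrp1, Nrp2, Sema4a and Plxnd1, or 12.9%, against 3.18% of all genes. The 3 D50A libraries left are those with high cerebellar granule cell transcripts and without the signs of D50A 3, so genotype and cerebellar content cannot be told apart in this comparison.

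**Figure D2:**
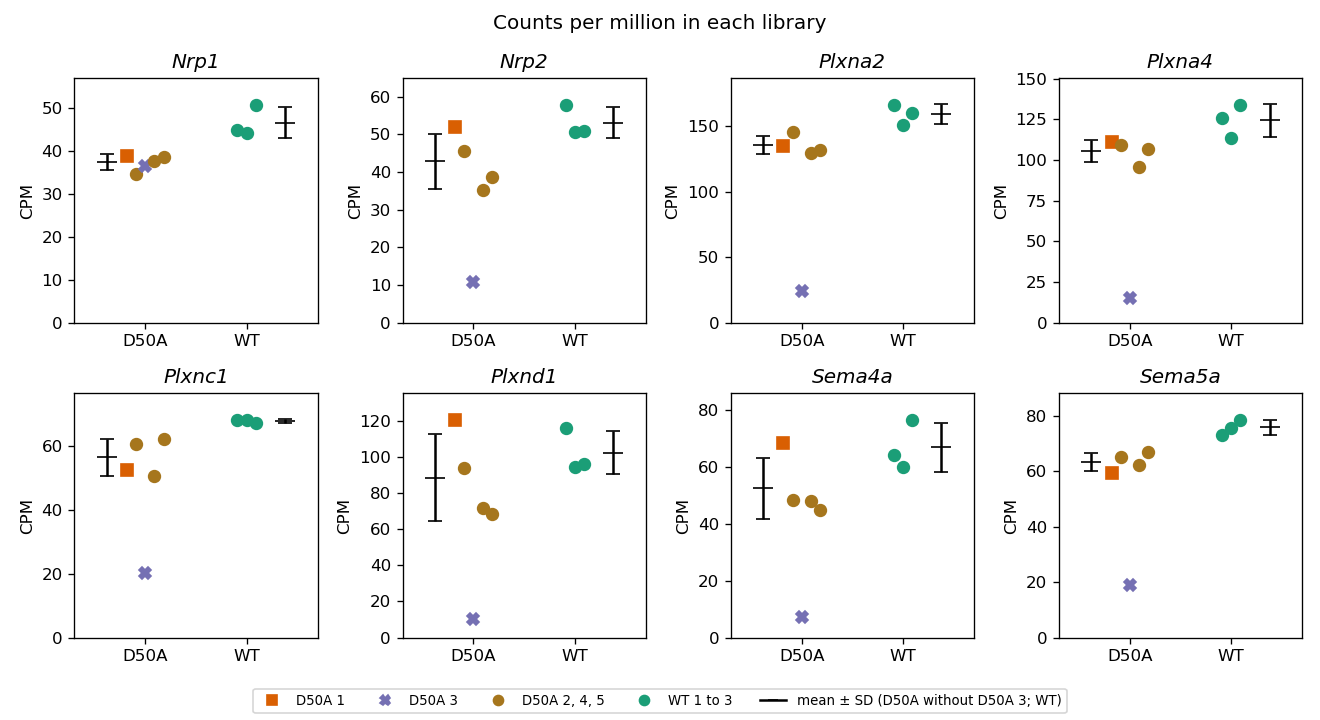
CPM is plotted for each library in 8 genes, with D50A left of WT; squares mark D50A 1, crosses D50A 3, and bars give the mean ± SD of D50A without D50A 3 and of WT. Nrp1 sits at 34.6 to 38.8 CPM in all 5 D50A libraries and at 44.3 to 50.9 CPM in WT, whereas D50A 1 lies among the WT points or above them for Nrp2, Plxnd1 and Sema4a.

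The neuropilins, the ligand-binding subunits of class 3 receptors, both fell without D50A 1 and D50A 3 and did not pass the test in all 8 libraries. Nrp1 (ENSMUSG00000025810), on the plus strand of chromosome 8 from 128358604 to 128503363 in mm10, also binds vascular endothelial growth factor. It had 38.8, 34.6, 36.5, 37.7 and 38.7 CPM in D50A 1 to 5, against 44.9, 44.3 and 50.9 CPM in WT 1 to 3. The groups did not overlap, and D50A 3 was here within the range of the other D50A libraries. The log2 fold change was -0.33 (SE 0.12) in all 8 libraries (edgeR adjusted p = 0.84). It was -0.31 (SE 0.07) without D50A 3 (edgeR adjusted p = 0.23) and -0.32 (SE 0.07) without D50A 1 and D50A 3 (edgeR adjusted p = 0.013). Of the members named in full, Nrp1 was the one whose estimate moved least between these 3 fits. It is among the 5 members under 45% GC. In D50A 3 those had a median log2 ratio to the WT mean of 0.20, against -2.31 for the other 26. After the GC and length correction the Nrp1 groups overlapped in all 8 libraries and stayed apart without D50A 3.

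Nrp2 (ENSMUSG00000025969, chromosome 1, 62703285 to 62818695) prefers Sema3f over Sema3a as its ligand. Its CPM were 51.8, 45.4, 10.8, 35.3 and 38.6 in D50A 1 to 5, and 57.9, 50.5 and 50.9 in WT 1 to 3. D50A 1 lay within the WT range, D50A 2, 4 and 5 lay below it, and D50A 3 was far below all. The log2 fold change was -0.54 (SE 0.41) in all 8 libraries (edgeR adjusted p = 0.84), and -0.30 (SE 0.12) without D50A 3. Without D50A 1 and D50A 3 it was -0.40 (SE 0.08) (edgeR adjusted p = 0.0083).

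Among the A-type plexins, the co-receptors of neuropilins, Plxna2 and Plxna4 fell without D50A 1 and D50A 3, and Plxna1 and Plxna3 were not called in the 3 edgeR fits. Plxna2 (ENSMUSG00000026640, chromosome 1, 194618218 to 194816869) is a receptor for Sema6a in the developing mouse cerebellum and hippocampus. It had 135, 145, 23.9, 129.8 and 132 CPM in D50A 1 to 5, against 166.6, 151 and 160.3 CPM in WT 1 to 3. Plxna4 (ENSMUSG00000029765, chromosome 6, 32144268 to 32588192), a receptor of Sema3a with Nrp1, had 111, 109, 15.3, 95.7 and 106 CPM in D50A 1 to 5, and 126, 114 and 134 CPM in WT 1 to 3. Both genes kept the D50A libraries below the WT libraries. In all 8 libraries the log2 fold changes were -0.49 (SE 0.48) for Plxna2 and -0.51 (SE 0.52) for Plxna4 (edgeR adjusted p = 0.84 for both). Without D50A 3 they were -0.22 (SE 0.06) for Plxna2 and -0.23 (SE 0.08) for Plxna4 (edgeR adjusted p = 0.28 and 0.36). In the 6 remaining libraries after dropping D50A 1 as well, the values were -0.22 and -0.25 (edgeR adjusted p = 0.049 and 0.048). Those 2 calls stand just inside the threshold and were not made after the GC and length correction (edgeR adjusted p = 0.12 and 0.16).

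Plxna1 had 97.6 ± 13.7 CPM in D50A without D50A 3 (SD, n = 4) and 106 ± 10.6 CPM in WT (SD, n = 3), less apart than the spread within D50A. Plxna3, which works with Nrp2, had 45.4 ± 5.77 and 43.7 ± 5.40 CPM in these groups, with D50A 3 at 4.996 CPM. An antisense gene shares 10.7% of the exon bases of Plxna1 and other overlapping transcripts share at most 7.27% of any other member. Whether counting used strand is not stated in the labels, so reads over those bases cannot be told apart.

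The B, C and D plexins did not move as 1 group. Plxnc1 (ENSMUSG00000074785, chromosome 10, 94790866 to 94944835), the receptor of Sema7a, had 52.6, 60.8, 20.3, 50.9 and 62.2 CPM in D50A 1 to 5, and 68.2, 68.4 and 67.2 CPM in WT 1 to 3. The WT libraries were close together and every D50A library lay below them. Its log2 fold change was -0.46 (SE 0.32) in all 8 libraries, -0.25 (SE 0.08) without D50A 3, and -0.21 (SE 0.07) without D50A 1 and D50A 3. None of the 3 passed (edgeR adjusted p = 0.84, 0.34 and 0.079). The ligand Sema7a (ENSMUSG00000038264, chromosome 9, 57940112 to 57962865) had 185, 177, 79.1, 174 and 148 CPM in D50A 1 to 5, against 183, 164.99 and 158 CPM in WT 1 to 3. Apart from D50A 3 its groups overlapped. Its log2 fold change was -0.14 (SE 0.27) in all 8 libraries, 0.03 (SE 0.09) without D50A 3, and -0.0044 (SE 0.08) without D50A 1 and D50A 3, with edgeR adjusted p-values of 0.85, 0.95 and 0.98.

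Plxnd1 (ENSMUSG00000030123, chromosome 6, 115954811 to 115995005) binds Sema3e directly, without a neuropilin. It had 121, 93.7, 10.1, 71.6 and 68.3 CPM in D50A 1 to 5, and 116, 94.7 and 96.4 CPM in WT 1 to 3. D50A 1 was above every WT library, and D50A 2, 4 and 5 were below them all. Its log2 fold change was -0.49 (SE 0.59) in all 8 libraries, -0.20 (SE 0.17) without D50A 3, and -0.38 (SE 0.10) without D50A 1 and D50A 3. The edgeR adjusted p-values of those fits were 0.84, 0.78 and 0.035. DESeq2 did not call it in the last set (adjusted p = 0.19). The endothelial marker list, cells that carry much Plxnd1 and Nrp1, summed to 312 to 386 CPM across the D50A libraries and 326 to 360 CPM in WT over 12 genes. D50A 2, 4 and 5, the libraries of the fit that called Plxnd1 and Nrp1, had 325.2, 314 and 312 CPM. WT 3, the lowest WT library, had 325.6 CPM and was nearly equal to D50A 2. These sums use the scaling of all 8 libraries, not that of the fit. In the fit without D50A 1 and D50A 3, 10 of the 12 had a log2 fold change below 0, with a median of -0.14. Without D50A 3 alone those values were 7 of the 12 and -0.01. edgeR called none of the 12 in either fit, and the part of this list in the values of Plxnd1 and Nrp1 was not tested.

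B-type plexins gave no call by edgeR in these 3 fits. Plxnb1 had 119 ± 18.8 CPM in D50A without D50A 3 (SD, n = 4) and 131 ± 6.69 CPM in WT (SD, n = 3). Plxnb2, found in many progenitors and glia, had 75.7 ± 4.65 and 72.0 ± 5.53 CPM in these groups. Plxnb3, a plexin of the oligodendrocyte lineage, had 44.7 ± 7.57 and 46.3 ± 3.72 CPM. D50A 3 was at 20.8, 13.2 and 12.7 CPM for Plxnb1, Plxnb2 and Plxnb3.

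**Figure D3:**
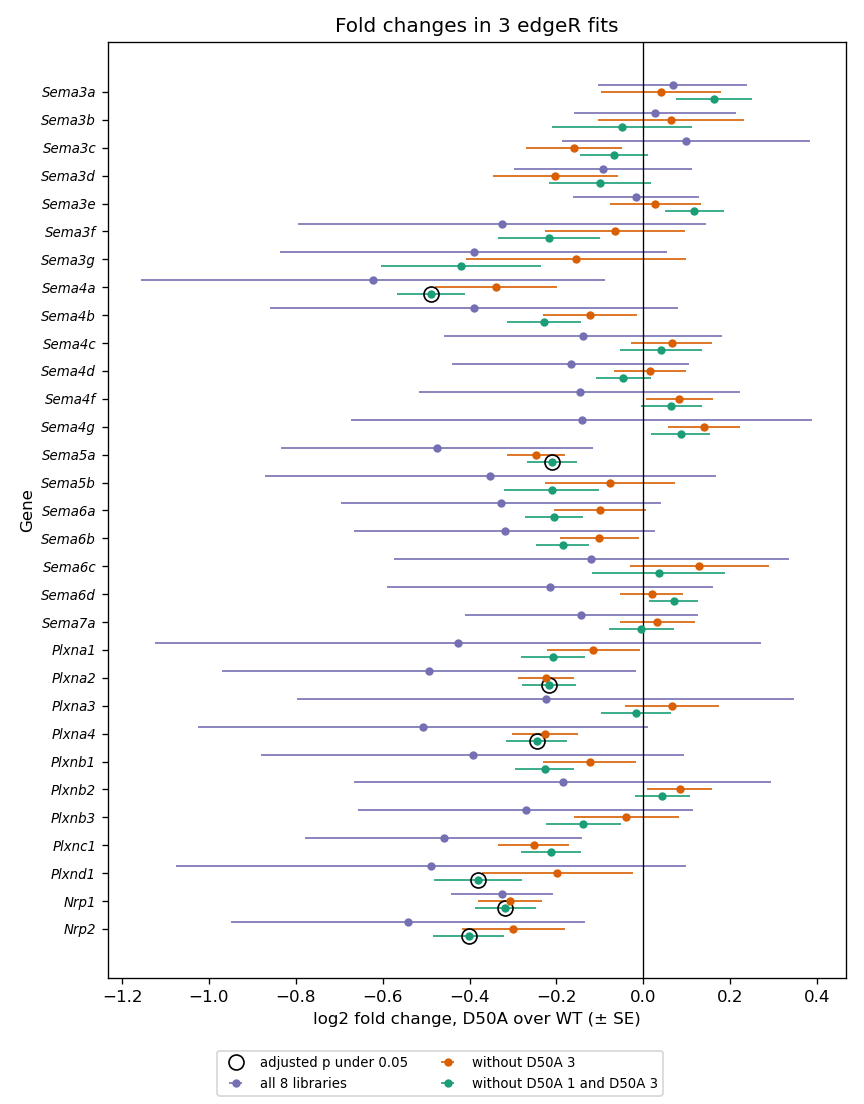
Points are log2 fold changes of D50A over WT with bars of 1 SE, for all 8 libraries, without D50A 3 and without D50A 1 and D50A 3; rings mark an edgeR adjusted p under 0.05. Rings appear for 7 genes, all below 0 and all in the fit without D50A 1 and D50A 3, and the bars of the fit with all 8 libraries are the widest for all 31 genes.

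Among membrane semaphorins, Sema4a and Sema5a fell without D50A 1 and D50A 3, and no other was called in the 3 edgeR fits. Sema4a (ENSMUSG00000028064, chromosome 3, 88435959 to 88461182), known from immune cells, retina and oligodendrocytes, had 68.6, 48.5, 7.31, 48.2 and 44.8 CPM in D50A 1 to 5. WT 1 to 3 had 64.2, 60.0 and 76.8 CPM. D50A 2, 4 and 5 were below every WT library, while D50A 1 lay inside the WT range. The log2 fold change was -0.62 (SE 0.53) in all 8 libraries (edgeR adjusted p = 0.84) and -0.34 (SE 0.14) without D50A 3 (edgeR adjusted p = 0.48). Without D50A 1 and D50A 3 it was -0.49 (SE 0.08) (edgeR adjusted p = 0.0012), the smallest adjusted p of any member in that fit.

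Sema5a (ENSMUSG00000022231, chromosome 15, 32244810 to 32696341), a ligand with thrombospondin repeats that limits synapse number on mouse hippocampal granule neurons, showed the D50A and WT libraries apart. It had 59.3, 65.2, 18.8, 62.4 and 66.8 CPM in D50A 1 to 5, against 73.2, 75.7 and 78.6 CPM in WT 1 to 3. The log2 fold change was -0.48 (SE 0.36) in all 8 libraries, -0.25 (SE 0.07) without D50A 3, and -0.21 (SE 0.06) without D50A 1 and D50A 3. Its edgeR adjusted p-values were 0.84, 0.26 and 0.041 in those fits, and 0.078 in the last one after the GC and length correction. Its paralog Sema5b, at 23.3 ± 4.497 CPM in D50A without D50A 3 (SD, n = 4) and 24.8 ± 4.17 CPM in WT (SD, n = 3), overlapped between the groups.

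Class 4 members other than Sema4a lay close together. Sema4d, a ligand of Plxnb1 that mature oligodendrocytes express, had 68.7 ± 7.203 CPM in D50A without D50A 3 and 68.6 ± 0.395 CPM in WT. Sema4g had 52.7 ± 4.27 and 48.2 ± 4.32 CPM, Sema4f had 57.9 ± 3.94 and 55.0 ± 4.35 CPM, and Sema4c had 19.1 ± 0.851 and 18.3 ± 2.28 CPM. Sema4b had 15.0 ± 2.20 and 16.5 ± 0.132 CPM. Without D50A 3 their log2 fold changes ran from -0.12 to 0.14 and none had an unadjusted p under 0.05. With Sema4a, the class median was -0.16 in all 8 libraries, 0.04 without D50A 3, and -0.0026 without D50A 1 and D50A 3.

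Class 6 members, ligands that can also act as receptors, were likewise within their spread without D50A 3. Sema6a, a ligand that granule cells use while they migrate in the developing mouse cerebellum, had 51.1, 42.4, 12.49, 35.8 and 38.4 CPM in D50A 1 to 5 and 45.8, 45.6 and 44.4 CPM in WT 1 to 3. D50A 2, 4 and 5, with high granule cell markers, were thus below WT for this gene. Sema6b (ENSMUSG00000001227, chromosome 17, 56123085 to 56140343) had 164, 139, 45.9, 128 and 126 CPM in D50A 1 to 5, against 156, 152 and 143 CPM in WT 1 to 3. Its log2 fold change was -0.32 (SE 0.35) in all 8 libraries, -0.10 (SE 0.09) without D50A 3, and -0.19 (SE 0.06) without D50A 1 and D50A 3, where it did not pass (edgeR adjusted p = 0.084). Sema6d had 98.1 ± 6.79 CPM in D50A without D50A 3 (SD, n = 4) and 97.5 ± 2.55 CPM in WT (SD, n = 3), and Sema6c 5.54 ± 0.836 and 5.10 ± 0.830 CPM.

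Secreted class 3 ligands showed no call in these fits. Without D50A 1 and D50A 3 the calls were the receptor genes Nrp1, Nrp2, Plxna2, Plxna4 and Plxnd1 and the membrane semaphorins Sema4a and Sema5a. With granule cell marker level as a covariate and without D50A 3, edgeR called Sema3c and Sema3d lower (edgeR adjusted p = 0.012 and 0.040). In that fit genotype and the GC trend of D50A 1 cannot be told apart. Whether ligands and receptors differ in response was not tested. The class median log2 fold change over 7 genes was -0.02 in all 8 libraries, with a range from -0.39 to 0.10. It was -0.07 without D50A 3, with a range from -0.20 to 0.06, and -0.07 without D50A 1 and D50A 3, with a range from -0.42 to 0.16. Sema3a, the classic repellent for Nrp1-bearing axons, had 16.9, 27.3, 25.2, 21.6 and 23.8 CPM in D50A 1 to 5, and 22.4, 21.2 and 22.0 CPM in WT 1 to 3. Sema3e, the Plxnd1 ligand, had 38.1 ± 4.72 CPM in D50A without D50A 3 (SD, n = 4) and 37.6 ± 2.85 CPM in WT (SD, n = 3). Sema3f, the Nrp2 ligand, had 15.1 ± 3.45 and 16.0 ± 1.82 CPM. Sema3c (ENSMUSG00000028780, chromosome 5, 17574281 to 17730268) had 21.2, 26.9, 52.7, 25.7 and 29.8 CPM in D50A 1 to 5, and 29.8, 26.8 and 30.8 CPM in WT 1 to 3. Its log2 fold change was 0.10 (SE 0.29) in all 8 libraries, -0.16 (SE 0.11) without D50A 3, and -0.07 (SE 0.08) without D50A 1 and D50A 3, so its sign depended on D50A 3. Low genes of the class were Sema3d at 9.52 ± 1.501 and 11.02 ± 1.36 CPM, Sema3g at 4.41 ± 1.697 and 5.001 ± 0.0462 CPM, and Sema3b at 4.44 ± 0.704 and 4.29 ± 0.760 CPM. Summed over the class, ligand level was 109 to 133 CPM across the D50A libraries and 120 to 128 CPM in WT, and D50A 3 gave the highest sum.

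Base composition divided the class, and library levels varied with it to different degrees. The longest transcripts of Sema3a, Sema3c, Sema3d and Sema3e, which lie on chromosome 5, hold 39.2% to 42.7% GC, and Nrp1 holds 41.9%. The other 26 members hold 45.9% to 63.5%. In D50A 1 the 5 genes of low GC had a log2 ratio to the WT mean of -0.52 to -0.26, and the other 26 had a median of 0.15. D50A 3 showed the opposite order, with a median of 0.20 for the 5 genes and -2.31 for the 26. Across the 31 members the Spearman correlation of that ratio with GC content was 0.70 in D50A 1 and -0.48 in D50A 3, and across 12438 genes it was 0.66 and -0.29. D50A 5 had -0.37 over the members and -0.39 over all these genes. D50A 4 had 0.10 and -0.20, and D50A 2 had 0.26 and -0.03. D50A 2, 4 and 5 are the D50A libraries of the fit that made the 7 edgeR calls. These values describe libraries, since genes of 1 library share its preparation and depth. WT libraries were not free of it, with 0.59, 0.40 and -0.76 over the members in WT 1 to 3, each set against the other WT libraries.

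**Figure D4:**
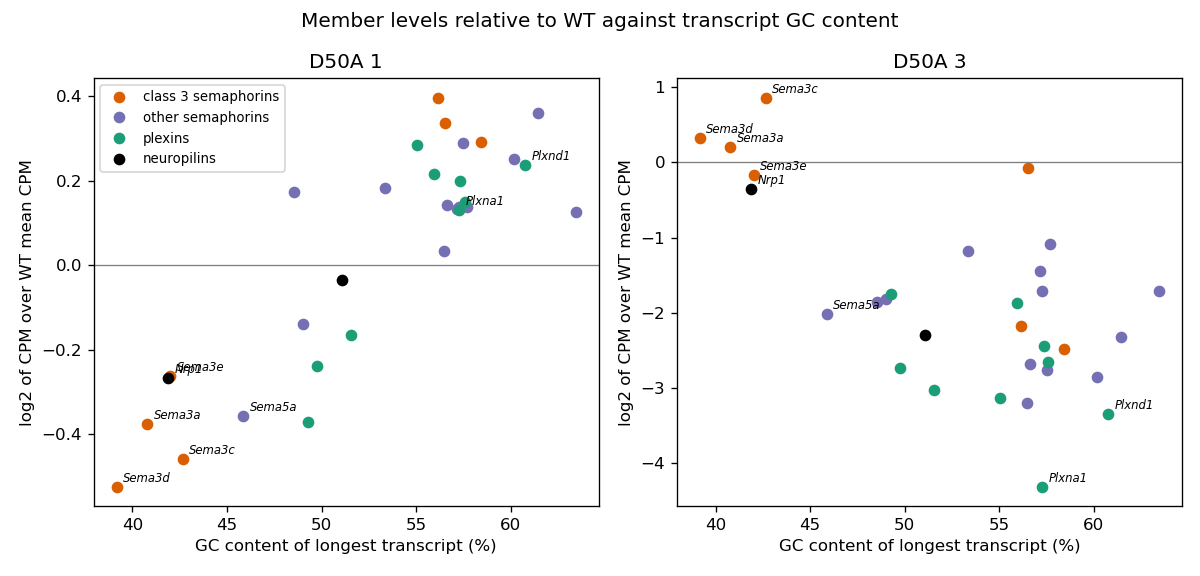
Each point is 1 gene, with GC content of its longest annotated transcript in percent against the log2 of its CPM over the WT mean, for D50A 1 (left) and D50A 3 (right). The 5 genes under 45% GC are all below 0 in D50A 1 and hold 3 of the values above 0 in D50A 3, where no other gene is above 0.

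The 10 members for which D50A 1 was below every WT library held 39.2% to 51.6% GC, and the 17 for which it was above held 48.6% to 63.5%. The shares of all genes on each side of WT in D50A 1 are not given here. The counts of members therefore cannot be read as particular to them. The 5 genes with separated groups are among those 10 by definition, since separation requires D50A 1 below WT. They hold 41.9% to 51.6% GC, and their position in D50A 1 cannot be told apart from its trend with GC content. After the GC and length correction in all 8 libraries, Plxna2, Plxnc1 and Sema5a stayed separated, Nrp1 and Plxna4 did not, and Sema6b became so. With the same correction without D50A 3, Nrp1, Plxna2, Plxnc1, Sema5a and Sema6b were separated, and Plxna4 was not. In that fit of 7 libraries the corrected log2 fold changes were -0.28 for Nrp1, -0.19 for Plxnc1, -0.15 for Sema5a, -0.13 for Plxna2 and -0.12 for Plxna4, with SEs of 0.08, 0.07, 0.05, 0.05 and 0.06. The smallest edgeR adjusted p of any member in that fit was 0.17, for Nrp1. The share of all genes separated after the correction is not given here, so the corrected separations cannot be read as particular to the members.

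The genes can be sorted by where D50A 1 fell, because it alone in its group had WT-like granule cell markers. For Nrp1, Plxna2, Plxna4, Plxnc1 and Sema5a, D50A 1 lay below WT together with D50A 2, 4 and 5. For 9 others, Nrp2, Plxna1, Plxnb1, Plxnd1, Sema3g, Sema4a, Sema4b, Sema6a and Sema6b, D50A 2, 4 and 5 lay below every WT library and D50A 1 did not. That makes 14 of 31 members, or 45.2%, against 12.3% of all genes for the same 3 libraries. With the granule cell list mean as a covariate and without D50A 3, edgeR called Sema5a, Sema3c, Plxnc1 and Sema3d lower, or 12.9% of members, against 7.23% of all genes. It called no member higher, against 1.47% of all genes. In that fit the log2 fold change was -0.36 for Sema5a and -0.36 for Plxnc1, with SEs of 0.08 and 0.10 (edgeR adjusted p = 0.0089 and 0.024). It was 0.04 for Sema4a, with an SE of 0.10, and 0.28 for Plxnd1, with an SE of 0.12. With granule cell level held constant, D50A 1 is the D50A library closest to WT, and the 4 genes called hold 39.2% to 49.3% GC, so genotype and the composition trend of D50A 1 cannot be told apart in it.

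Markers of some other cells moved between the same libraries, and those of others moved little. Oligodendrocyte precursor markers summed to 341 to 684 CPM across the D50A libraries, with D50A 3 lowest, and 710.1 to 770.0 CPM in WT. Of the 10, 3 were below WT in every D50A library, namely Pdgfra, Tnr and Ptprz1, against 4.24% of all genes. Cortical projection neuron markers summed to 1658 to 2942 CPM over 12 genes in D50A and 2745 to 2916 CPM in WT. Hippocampal markers summed to 430.3 to 481 CPM across the D50A libraries and 468 to 511 CPM in WT. Without D50A 3, 4 of the 10 were below WT in every D50A library. There 1 of them, Calb2, was above WT in every D50A library, with a log2 fold change of 0.76 (SE 0.09) (edgeR adjusted p = 0.094). Striatal markers had 6 of 10 below and 0 above in the same libraries. Among all genes, 5.26% lay below in those libraries and 5.28% above. Mature oligodendrocyte markers, from cells that express Sema4d and Plxnb3, summed over 14 genes to 22388 CPM in D50A 3, 10922 to 12068 CPM in the other D50A libraries, and 9996 to 10813 CPM in WT. Pan-neuronal markers summed to 6031 to 6844 CPM over 11 genes in D50A and 6658 to 7066 CPM in WT. Without D50A 3, the median log2 fold change was -0.0023 for thalamic, 0.0013 for mural and meningeal, 0.036 for astrocyte and -0.097 for microglia markers. Thalamic markers had 1 gene above WT and 0 below in those libraries, mural and meningeal markers 0 and 0. Astrocyte markers had 2 above and 1 below, and microglia markers 0 and 1. The part of these marker lists in the values of the semaphorin, plexin and neuropilin genes was not tested.

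Partners and effectors of the receptors gave no call in all 8 libraries or without D50A 3. Of 22 tested co-receptors and alternative ligands or receptors, edgeR called 0 higher and 0 lower without D50A 3, with 16 below a log2 fold change of 0 and a median of -0.07. The adhesion molecule Nrcam, a co-receptor partner of Nrp2, had 309, 335, 128, 312 and 299.8 CPM in D50A 1 to 5 and 376, 359 and 361 CPM in WT 1 to 3. Its log2 fold change without D50A 3 was -0.21 (SE 0.06) (edgeR adjusted p = 0.27). Trem2, a microglial receptor that associates with Plxna1, had -0.28 (SE 0.12), and the receptor kinase gene Met -0.34 (SE 0.16).

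Among 40 cytoplasmic effectors, edgeR called 0 higher and 0 lower without D50A 3, with 25 below 0 and a median of -0.04. Dpysl4, of the collapsin response mediator family, had 62.4, 69.4, 19.2, 70.3 and 70.9 CPM in D50A 1 to 5 and 57.1, 53.5 and 52.3 CPM in WT 1 to 3. Apart from D50A 3 its groups did not overlap, and its log2 fold change without D50A 3 was 0.34 (SE 0.07) (edgeR adjusted p = 0.19). Rhod, a small GTPase gene at 0.811 to 2.41 CPM across the D50A libraries and 0.535 to 0.625 CPM in WT, had a log2 fold change of 0.86 (SE 0.26). Cdk5r1, an activator of a kinase in the Sema3a pathway, had -0.17 (SE 0.07). Without D50A 1 and D50A 3, Dpysl4 rose and Cdk5r1 fell, or 2.5% of the 40 effectors in each direction, which is below the 3.36% of all genes called higher and the 3.06% called lower. Nrcam and Trem2 fell there, or 9.09% of the 22 co-receptors and partners.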

How the data were processed

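Per the labels' protocols, homogenized total brain RNA was selected for poly(A) and made into libraries with an NEBNext Ultra kit. A single table of raw counts for 25815 genes was deposited by the authors, without normalization. CASAVA 1.8, STAR 2.5, HTSeq 0.6.1 and DESeq2 2, with mm10, are named in the submitters' processing notes, without order; the sources used here do not give the annotation release or the use of strand. Groups came from the genotype label; library numbers follow deposit order. The labels do not say how animals map to litters, and p-values reflect variation among these 8 libraries only, which totalled 13675945 to 24802272 counts.

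Counts were tested with edgeR 4.0.16 in R 4.3.3 (quasi-likelihood, filterByExpr, TMM, Benjamini-Hochberg over all genes tested, threshold 0.05). The SE is the log2 fold change over the square root of F. DESeq2 1.42.0 and limma 3.58.1 were alternatives. The GC and length correction was chosen after seeing the data. It took each library's log2 CPM (prior count 2) minus the gene's mean over all libraries of that fit. A lowess (span 0.3) of these differences was run on GC content and then on log2 transcript length. Genes with a mean log2 CPM above 2 set the curves, and the fitted values were used as offsets. Positions, exon lengths and GC content came from GENCODE M21 (mm10), which matched 25484 identifiers and all 31 members. Tests were tried on simulated counts. The chi-square per degree of freedom was 3.36 to 6.48 between D50A 2, 4 and 5, and 4.54 to 6.29 between WT libraries. It was 15.6 to 32.4 for D50A 1 against D50A 2, 4 and 5, and 320 to 457 in pairs with D50A 3.

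Members, gene lists and tests were chosen with earlier results of these data known. Every member is named; full values go to the 8 with the smallest unadjusted p, those called in a fit, the highest per kb in 4 groups, and others added after their values were seen. For each pathway list, the 3 genes with the smallest p without D50A 3 are named.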

Additional observations from a re-analysis of the deposited data

Results flagged for a closer look

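D50A 3 stood far from the other 4 D50A libraries for 12 members, by a gap to its nearest neighbour larger than the limit for 5 samples. It was low at 20.3 CPM for Plxnc1, 18.8 CPM for Sema5a, 23.9 CPM for Plxna2, 15.3 CPM for Plxna4, 5.37 CPM for Plxna1 and 4.996 CPM for Plxna3. It was also low at 27.7 CPM for Sema6d, 6.75 CPM for Sema4c, 16.7 CPM for Sema4f, 13.2 CPM for Plxnb2 and 7.12 CPM for Sema4g. For Sema3c it was high, at 52.7 CPM. With D50A 3 set aside, D50A 1 stood apart from the other 3 D50A libraries for Sema4a, at 68.6 CPM. Chance gives such a gap in about 1 in 20 groups, and the members share these libraries, so the gaps are not separate events.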

How the results depend on the processing

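Upper-quartile or RLE scaling, both filters on low counts and a threshold of 0.1 moved none of the member counts by over 1.5 times and no median beyond the spread of the D50A libraries. limma-voom with quality weights called 3 members lower with all 8 libraries and 3 without D50A 3, against 0 by edgeR. Without D50A 1 and D50A 3 together, 7 members were called lower, 1 had every D50A library above WT and 14 below, against 0, 0 and 5; DESeq2 gave 7 there. With the GC and length correction in those libraries, 4 were called lower, 4 lay above and 11 below. Without D50A 3, that correction put 2 members above, and the granule cell covariate gave 4 calls lower and a median of 0.15, against -0.10. The shares of all genes lying above or below after the correction are not given here.

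Leaving out each library in turn gave 0 to 0 members higher and 0 to 0 lower with all 8 libraries, medians of -0.41 to -0.10, and 5 to 14 members below WT, 14 being without D50A 1. Without D50A 3 it gave 0 to 7 lower, 7 being without D50A 1, medians of -0.19 to -0.03, 0 to 4 members above and 5 to 14 below. The cause was not tested.

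Sema3c, with 0.10 in all 8 libraries, had -0.16 without D50A 3, -0.094 by limma-voom, -0.25 with the covariate, and -0.067 by edgeR, -0.071 after the correction and -0.071 by DESeq2 without D50A 1 and D50A 3, with 0.24 without D50A 1 alone. Sema7a, with -0.14, had 0.032 without D50A 3, -0.21 without D50A 1, 0.020 with the covariate and 0.053 without D50A 1 and D50A 3 after the correction. Without D50A 3 it became -0.0044 without D50A 1 and -0.011 without WT 3. With the covariate, Plxnd1 was 0.056 with all 8 libraries, and without D50A 3 Sema4a was 0.041, Sema6b 0.14 and Plxnd1 0.28. No paired analysis was possible because the labels give no replicate numbers.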
